A study of Mus musculus with 6 samples.

Results

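The wild-type transcriptome of the mouse cochlear duct at postnatal day 8 is described here from the 3 Gfi1+/+ libraries among the 6 libraries of the series. The members are all 14865 genes listed for these libraries, described by their mean over the 3 animals, and the other genotype, Gfi1cre/+, entered no value below. Each library was made from the pooled RNA of the 2 cochleae of 1 C57BL/6 mouse, so the spread between libraries is the spread between 3 animals together with that of dissection and library preparation. The labels name no treatment, and both copies of Gfi1, a transcription factor needed by inner ear hair cells (HCs), were intact. The RNA was selected for poly(A) tails and sequenced as paired ends.

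The cochlear duct is the coiled tube of the inner ear that holds the organ of Corti, where HCs turn sound into receptor currents and supporting cells hold them in place. The tectorial membrane, an extracellular sheet of collagens and tectorins, lies over the HCs. The lateral wall is made of the spiral ligament, whose fibrocytes return potassium, and of the stria vascularis, in which marginal cells, melanocyte-derived intermediate cells and basal cells build up the potassium and the voltage of the endolymph. Glia and the fibres of spiral ganglion neurons reach the duct from its inner side, and the bone of the otic capsule surrounds it. At this age mice do not yet hear.

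The deposited values were whole reads divided by 1 size factor per library, and are given below as normalized reads. From the values, 13603908, 15899307 and 16136022 reads were recovered for replicates 1, 2 and 3, with size factors of 0.810, 0.955 and 0.948. Of the low values, 100% were whole within 0.1 read in each library. A count of 3 reads, taken as the floor of detection, is worth 3.70, 3.14 and 3.16 normalized reads in replicates 1, 2 and 3, and this floor covers counting error only. Since long transcripts give more reads, levels are compared between genes only after division by the exon length of the gene and scaling of each library to a sum of 1000000. This is the length-scaled level, in parts per 1000000 (ppm), which could be computed for the 14796 genes matched by identifier to the annotation. Errors are SD over the 3 libraries.

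The defining genes of the duct were present in each library. The HC motor protein gene Myo7a had 601, 669 and 769 normalized reads in replicates 1, 2 and 3, and Otof, needed for transmitter release by HCs, had 1650.3, 1832 and 1601. Sox2, a transcription factor of supporting cells, had 647, 686 and 461. Kcnq1, the potassium channel of strial marginal cells, had 3266, 3374 and 3418. Gfi1 itself had 147, 160.2 and 152, which was rank 11115 among the listed genes. The labels give no sex. Xist, the RNA of the inactive X chromosome, had 7338, 7936 and 8138, whereas the Y-linked genes Ddx3y and Uty, looked up after the values were seen, had 0 reads in all 3 libraries. Of the 7 genes assigned to chromosome Y, 5 had at most 1 read in each library. The reads of the other two, Erdr1, which lies in the region that X and Y share, and Gm21857, brought the chromosome to 0.00401%, 0.00362% and 0.00387% of the reads.

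Reads were concentrated on few genes. The 10 genes with the most reads held 7.60% ± 0.372 of all reads, the 100 with the most reads held 21.2% ± 0.346 and the 1000 with the most reads held 47.8% ± 0.342. It took 17 genes to reach 10% of the reads, 161 genes to reach 25% and 1131 genes to reach 50%. The mean per gene had a median of 471 normalized reads, and the gene with the most reads lay 696-fold above that median. A mean of at least 1000 was reached by 4088 genes, or 27.5%, and these held 77.9% of the reads. A mean of at least 10000 was reached by 140 genes, which held 23.9%. On the length-scaled level the concentration was greater, with 8.55% ± 0.964 in the 10 highest genes, 30.2% ± 1.36 in the 100 highest and 50% in 444 genes.

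**Figure D1:**
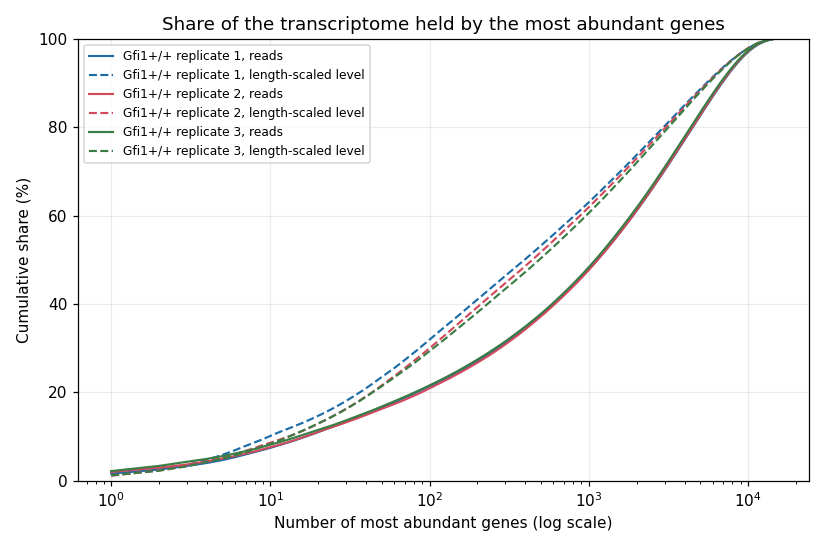
Cumulative share (%, vertical axis) held by the most abundant genes, ranked within each library, against their number (log scale, horizontal axis), with solid lines for reads and dashed lines for the length-scaled level, and 1 colour for each of the 3 libraries. The solid lines lie almost on each other and reach about 21% at 100 genes, while the dashed lines rise earlier, to about 30% at 100 genes, with replicate 1 uppermost at 31.9%.

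Collagen genes and the matrix gene Sparc stood at the head of the order of reads. Col2a1, the chain of type II collagen, had 274391, 332149.7 and 375917 normalized reads in replicates 1, 2 and 3, and held 1.95% of all reads. It was the only gene of the 30 with the most reads, other than Eef2, whose range over the libraries did not overlap that of the gene ranked next. Sparc, a calcium-binding matrix glycoprotein, had 158596, 166436 and 199725, and was highest in replicate 3 as Col2a1 was. Col11a2, a chain of the type XI collagen that is built into type II fibrils, had 111146, 117826 and 159922. The chains of type IX collagen, which sits on the surface of these fibrils, followed. Col9a1 had 105719, 114367 and 106566, Col9a2 had 69077, 73875 and 87385 and Col9a3 had 61452, 69213 and 74358. Type II, IX and XI collagens are known parts of both cartilage and the tectorial membrane. Col1a2, a chain of the type I collagen of fibrocytes and bone, came in at rank 7 with 75861, 95523 and 99298, and its lowest value was again in replicate 1. Altogether 7 of the 30 genes with the most reads were collagen chains. The collagen-binding chaperone Serpinh1 stood at rank 23 with 36662, 40121 and 35068.

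Genes of secreted proteins and of fibrocytes followed. Ptgds, the prostaglandin D synthase that is also a secreted carrier of small lipids, had 112563, 108182 and 111688 normalized reads, nearly level across the libraries. Clu, which encodes the secreted chaperone clusterin, was as even, with 85458, 83289 and 85544. Car3, a carbonic anhydrase of spiral ligament fibrocytes, had 88448, 81835 and 64888, and Otor (otoraplin), a small secreted protein of the cochlear mesenchyme, had 65141, 62524 and 38982. Both were lowest in replicate 3. Otos (otospiralin), made by fibrocytes, had 34311, 27926 and 46380 and was highest in replicate 3. Tectb, which encodes the beta-tectorin of the tectorial membrane, had 52717, 58321 and 35886.

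Of the supporting cell list, 2 genes were among the 30 with the most reads. Sparcl1, a matricellular protein, had 57193, 52490 and 53582, and Fbxo2, an F-box protein that is abundant in the cochlear epithelium, had 34105, 27635 and 38337. Growth-related secreted proteins were also near the top. Igfbp5, which binds insulin-like growth factors, had 60413, 59445 and 70570, the heparin-binding factor Ptn had 52794, 49131 and 37657 and the follistatin-like Fstl1 had 37277, 42161 and 30435. The membrane proteins App and Itm2b, which are found in most cells, had 51842, 55196 and 59259 and 48612, 46147 and 48444 normalized reads. Apoe, the apolipoprotein of glia and macrophages, had 38511, 34767 and 37045. The translation elongation factor Eef2 had 44714, 48489 and 45949. From the mitochondrial genome, mt-Co1 had 108437, 91719 and 89625, mt-Cytb had 74526, 64125 and 63027, mt-Nd1 had 40865, 35666 and 35234 and mt-Nd5 had 37489, 34079 and 33148. These 4 subunits of the respiratory chain were each highest in replicate 1.

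The order of neighbours was mostly not resolved by 3 animals. Of the 30 steps down the order of reads, 28 were between genes whose ranges over the libraries overlapped, and of the 30 steps down the order of levels 29 were. A paired exact test over 3 libraries cannot give a p below 0.25, so no test of neighbouring ranks was made. Membership of the top was steadier than order. Of the 10 genes with the most reads, 8 were among the 10 in every library, and of the 100 with the most reads 87 were among the 100 in every library. The lowest rank that any of the 30 took in a library was 258, that of Yam1 in replicate 2.

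Dividing by length changed the head of the order. Ptgds was highest, at 11888 ± 415 ppm, followed by mt-Co1 at 11037 ± 810.4, mt-Cytb at 10376 ± 639 and Otor at 10304 ± 2428. Sparc reached 8192 ± 1287 and Col2a1, whose exons cover 9243 bases, reached 6291 ± 1184 at rank 9. Col1a2 went from rank 7 by reads to 102 by level, and App from 17 to 174. The globin genes moved up, Hba-a2 from rank 65 to 13 and Hbb-bs from 66 to 19. Of the 100 genes highest on each scale, 54 were shared. Of the 30 highest levels, 7 belonged to genes annotated as processed pseudogenes and 3 to noncoding genes (Yam1, Gm23935 and Rn7sk). Some of these genes are very short, and their place rests on the division by length. Gm23935, of 57 bases, went from rank 1799 by reads to 11 by level, and Gm10736, of 78 bases, from 2425 to 23. Levels of such short genes, and shares of the level that include them, are less certain as measures of abundance. The remaining 20 were protein coding, among them 5 collagen chains, 4 mitochondrial genes and 1500015O10Rik, a secreted protein gene, at 3146 ± 283 ppm. By the biotype of the annotation, protein coding genes held 95.2% ± 0.669 of the reads and 78.6% ± 2.27 of the length-scaled level.

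**Figure D2:**
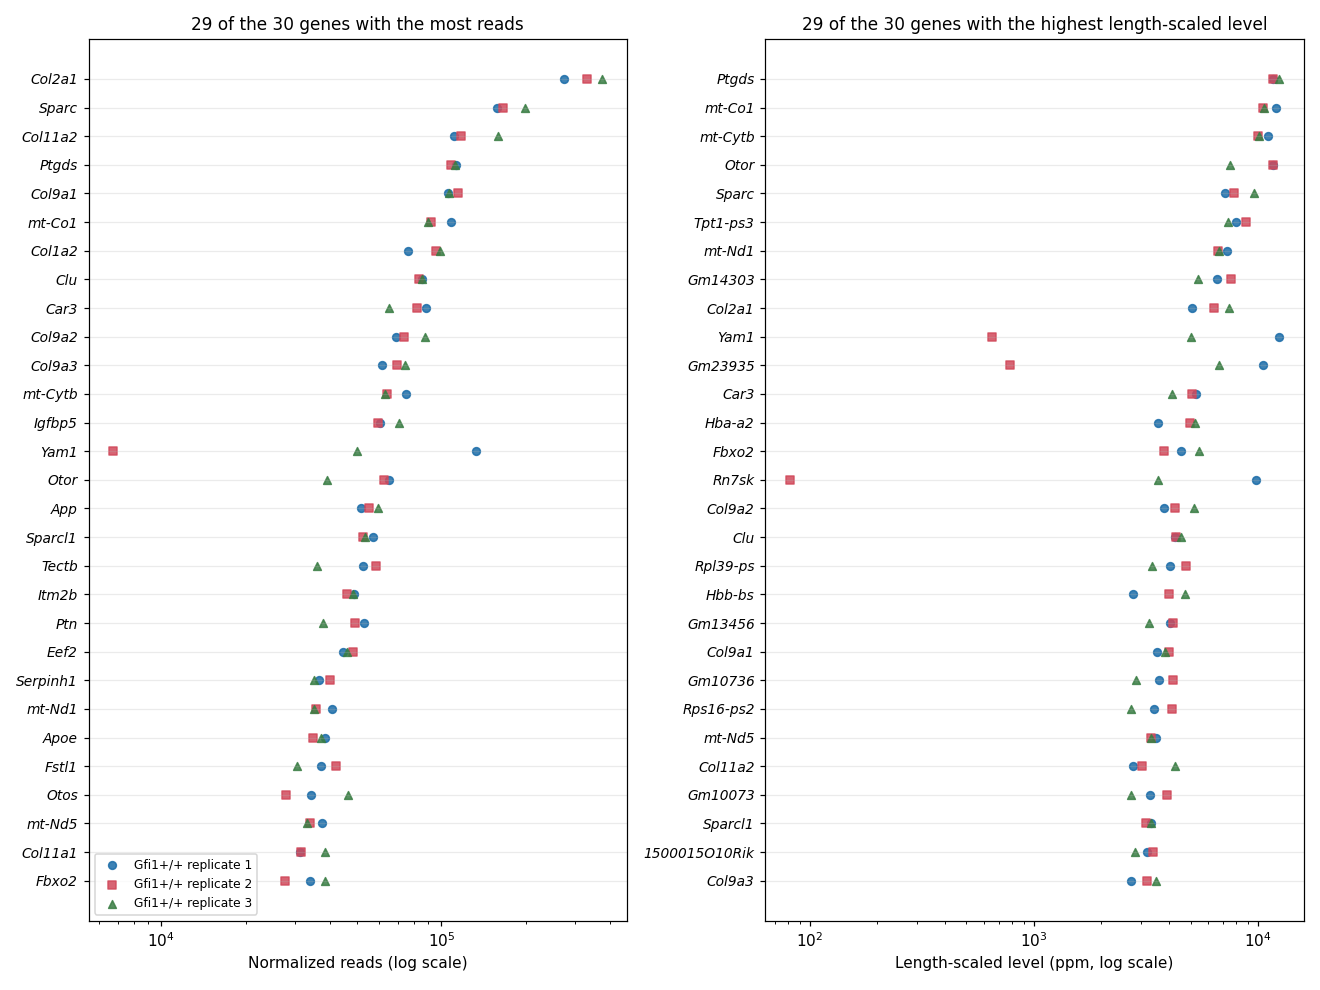
Left, 29 of the 30 genes with the most reads, with normalized reads of each of the 3 libraries (log scale). Right, 29 of the 30 genes with the highest length-scaled level (ppm, log scale). Each point is 1 library. Most genes keep their 3 points close together, while Yam1, Gm23935 and Rn7sk have a replicate 2 point far to the left, at 653, 783 and 81.5 ppm.

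A large part of the highest levels was assigned to processed pseudogenes, which are intronless copies of messenger RNAs put back into the genome. The 626 listed ones held 3.54% ± 0.417 of the reads and 18.0% ± 1.89 of the length-scaled level, and 38 of them were among the 100 highest levels. Alignment of their transcripts to coding transcripts found a parent for 596, at a median identity of 98.9% (a match of at least 80% of the pseudogene at an identity of at least 90%). For 30 of the 38 the parent was a cytosolic ribosomal protein gene. Of 462 parents that were themselves listed, 166 had fewer reads than their copies together in all 3 libraries and 281 had more in all 3. For another 29 parents the copy alone was among the genes analysed here. Where parent and copy share their bases, reads cannot be told apart by sequence, so that the value of either alone is uncertain, and sums of parent and copies are given beside them. Only reads with a unique position were counted, so the sums can still miss reads that fitted both. Stretches of 60 coding bases across an exon junction of the parent, which lies after base 30, show this for the 4 pseudogenes with the most reads. Capitals mark bases that differ between the 2 members of a pair, in GRCm38 (mm10) and 5′ to 3′.
Eef1a1, chr9:78480391-78480420 and chr9:78480511-78480540 (minus strand): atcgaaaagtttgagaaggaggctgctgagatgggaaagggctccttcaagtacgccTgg
Gm13456, chr2:40555841-40555900 (plus strand): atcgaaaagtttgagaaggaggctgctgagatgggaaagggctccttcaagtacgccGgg
Tpt1, chr14:75845661-75845690 and chr14:75846203-75846232 (plus strand): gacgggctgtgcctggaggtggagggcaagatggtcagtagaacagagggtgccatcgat
Tpt1-ps3, chr6:99878203-99878262 (minus strand): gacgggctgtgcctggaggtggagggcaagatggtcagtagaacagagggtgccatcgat
Rplp0, chr5:115559859-115559888 and chr5:115560741-115560770 (plus strand): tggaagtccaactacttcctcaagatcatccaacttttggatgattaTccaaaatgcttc
Gm8730, chr8:102865715-102865774 (minus strand): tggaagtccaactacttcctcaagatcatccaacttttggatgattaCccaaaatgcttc
Actg1, chr11:120347846-120347875 and chr11:120347969-120347998 (minus strand): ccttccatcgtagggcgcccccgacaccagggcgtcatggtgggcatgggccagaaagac
Gm12715, chr4:103563495-103563554 (plus strand): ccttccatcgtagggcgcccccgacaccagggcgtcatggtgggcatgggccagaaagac

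In these stretches Tpt1 and Actg1 differ from their copies at 0 of 60 bases, and the other pairs differ at 1. Tpt1, which encodes the translationally controlled tumour protein, had 778, 876 and 697 normalized reads in replicates 1, 2 and 3, and its copy Tpt1-ps3, identical to it over all 519 bases, had 24247, 25807 and 20797. The copy thus held 96.8% ± 0.0927 of the sum. Rplp0, a ribosomal stalk protein, had 5153, 5564 and 4312, and its copies together had 19037, 20494 and 15851. Actg1, the gamma actin of the cytoskeleton and of stereocilia, had 4286, 4212 and 4466 and its copies 14503, 15402 and 15359. Eef1a1, the elongation factor that brings aminoacyl-tRNA to the ribosome, had 33549, 34160 and 25993, close to the 33616, 33335 and 25425 of its 4 copies. In each of these genes the share of the copies was almost the same in all 3 libraries, at 78.7% ± 0.0418 for Rplp0, 77.7% ± 0.703 for Actg1 and 49.6% ± 0.366 for Eef1a1. Over the 262 listed parents with at least 1000 normalized reads in sum, the SD of that share had a median of 0.660 percentage points, and it was under 2 points in 244.

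Counted with their copies, several genes took a much higher place. Eef1a1 went from rank 32 to 15 by reads, Tpt1 from 5169 to 45, Rplp0 from 422 to 48 and Actg1 from 529 to 56. Ribosomal protein genes moved as well. Rps16, of the small subunit, had 58.3 normalized reads alone and 8597 with Rps16-ps2. The 60 listed parents of ribosomal protein copies held 0.830% ± 0.106 of the length-scaled level by themselves and 8.74% ± 1.30 with their own 96 copies. By reads the same sets held 0.409% ± 0.0572 and 1.77% ± 0.288. The rise was smaller by reads, since the level also depends on the length of each gene. By contrast Fth1, the heavy chain of the iron store ferritin, had 14010, 14459 and 13604 and its copy Gm6977 had 23.4, 19.9 and 13.7, at an identity of 90.5%. The genes named in this comparison other than those with the highest levels were chosen after their values were seen.

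**Figure D3:**
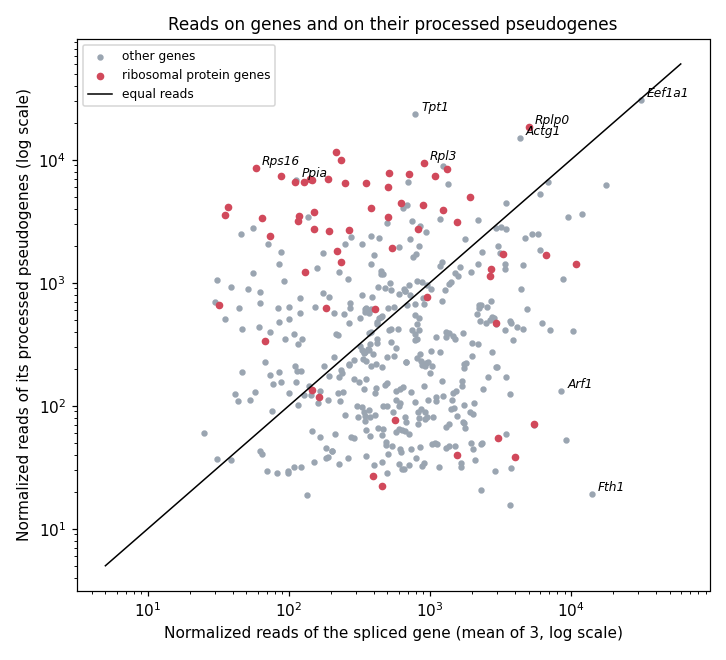
Mean normalized reads of each listed parent gene (horizontal, log scale) against the summed mean of its processed pseudogenes (vertical, log scale), 462 parents, with ribosomal protein genes in red and a line of equality. Most ribosomal protein genes lie above the line, Tpt1 and Rps16 far above it, Eef1a1 lies on it and Fth1 far below.

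Promoter sequence was compared as a feature that abundance did not use. The letters TATAA, searched on the strand of the gene from 40 to 16 bases before an annotated start, were found in 270 of the 10529 listed genes that had a RefSeq promoter of that symbol (GRCm38.p6), or 2.56%. Among the 100 genes with the most reads, 63 had a promoter and 8 of these held the letters, or 12.7%. Among the 1000 with the most reads the count was 36 of 720, or 5%, and among the 100 highest levels it was 5 of 33, or 15.2%. A match is a description of the letters and not a shown binding site. The 8 promoters are given as the 60 bases before the start, with TATAA in capitals, to show where it lies.
Otor, chr2:143078333-143078392 (plus strand): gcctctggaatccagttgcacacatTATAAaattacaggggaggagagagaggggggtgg
Tectb, chr19:55180666-55180725 (plus strand): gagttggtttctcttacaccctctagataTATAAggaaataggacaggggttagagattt
Igfbp4, chr11:99041184-99041243 (plus strand): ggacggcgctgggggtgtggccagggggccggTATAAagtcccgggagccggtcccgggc
Ctsd, chr7:142387828-142387887 (minus strand): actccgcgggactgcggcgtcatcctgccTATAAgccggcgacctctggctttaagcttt
Hspa5, chr2:34772030-34772089 (plus strand): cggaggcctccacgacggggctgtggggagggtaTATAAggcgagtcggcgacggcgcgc
Hba-a2, chr11:32296432-32296491 (plus strand): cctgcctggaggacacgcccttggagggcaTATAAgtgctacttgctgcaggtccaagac
Hbb-bs, chr7:103827929-103827988 (minus strand): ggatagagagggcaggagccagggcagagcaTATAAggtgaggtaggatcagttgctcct
Vim, chr2:13574251-13574310 (plus strand): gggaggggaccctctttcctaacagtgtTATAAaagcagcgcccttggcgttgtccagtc

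In all 8 the letters began between 35 and 26 bases before the start. The genes are the cochlear Otor and Tectb, the growth factor binding protein Igfbp4, the lysosomal protease Ctsd, the endoplasmic reticulum chaperone Hspa5, the 2 globins and the intermediate filament gene Vim. The mean of Otor was 55549 ± 14407 normalized reads and that of Tectb was 48975 ± 11676. No collagen gene was among the 8.

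To describe which cells and matrices the abundant transcripts belong to, 33 lists of genes were summed, with each gene in 1 list. The lists hold 668 of the listed genes, 21.9% of the reads and 27.4% of the length-scaled level. A list is a sum over its genes and not a count of cells, and in whole tissue fewer cells of a type and less RNA per cell cannot be told apart. Counts of genes highest in a library are to be read beside those over all 13972 genes with a mean of at least 40. There the highest value fell in replicate 1 for 4706, in replicate 2 for 3834 and in replicate 3 for 5432. Of the 100 genes with the most reads, 44 were in no list, and the rest had 8 each in the collagen and the matrix glycoprotein lists, 6 in the mitochondrial genome and 5 in the fibrocyte list.

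By the mean of the 3 libraries, matrix genes led among the sources other than the machinery that all cells share. In replicate 1 the fibrocyte list, of 13 listed genes, held 2.38% of the level. That was above the collagen list and above the matrix glycoprotein list at 2.04%. The 39 collagen chains held 5.73% ± 0.656 of the reads and 2.57% ± 0.374 of the level, at 2.19%, 2.59% and 2.93% in replicates 1, 2 and 3. The share was lowest in replicate 1, where 0 of the 38 chains with a mean of at least 40 had their highest value. The 46 matrix glycoproteins and proteoglycans held 2.26% ± 0.198 of the level. After Sparc and Serpinh1 the highest of them were Igfbp5 at 1873 ± 237 ppm, the keratan sulfate proteoglycan Lum at 1113 ± 99.8 and Igfbp4 at 1089 ± 119. The cartilage list held 0.609% ± 0.0201, led by Lect1, which encodes chondromodulin, at 2629 ± 119.9 ppm. Ucma, a secreted cartilage matrix protein, followed at 1377 ± 211. Spiral ligament and limbus fibrocyte genes held 2.22% ± 0.184 of the level, with Otor, Car3 and Otos ahead of the apolipoprotein Apod at 1370.1 ± 179 ppm and of Emilin2, a glycoprotein of elastic fibres, at 1014 ± 413. Emilin2 had 31971, 19004 and 43369 normalized reads and was highest in replicate 3.

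Among the epithelial sources, the supporting cell list held 1.28% ± 0.121 of the level. Fbxo2 was at 4588 ± 814 ppm, Sparcl1 at 3276 ± 87.7 and the small proteoglycan Epyc at 1972 ± 143. The gap junction genes Gjb2 and Gjb6, whose connexins couple supporting cells and fibrocytes, were at 1806 ± 293 and 532 ± 52.6 ppm. The tectorial membrane list held 0.275% ± 0.0539, at 0.282%, 0.326% and 0.219%, and was lowest in replicate 3. Tectb was at 2260.5 ± 505 ppm, above Otoa at 183 ± 23.3 and Tecta at 146 ± 76.6. Otoa encodes otoancorin, which anchors the membrane to the epithelium. Tecta had 5506, 9628 and 3299.5 normalized reads and was highest in replicate 2. The stria vascularis and root list held 0.267% ± 0.0232, led by the sodium pump subunit Atp1b2 at 858 ± 104 ppm, the potassium channel subunit Kcne1 at 422 ± 23.5 and the cotransporter Slc12a2 at 253 ± 20.3. The melanocyte list held 1.28% ± 0.0456, most of it from Ptgds, which other cells also make. Dct, an enzyme of pigment synthesis, was at 521 ± 30.8 ppm. The potassium channel gene Kcnj10, of strial intermediate cells and of glia, was at 124 ± 22.2. Genes of epithelia in general held 0.186% ± 0.0105, with Epcam at 439 ± 4.58 and Cdh1 at 359 ± 33.7 ppm.

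HC genes made up a small share. The 39 HC genes listed, of 42 written down, held 0.119% ± 0.00257 of the reads and 0.134% ± 0.0124 of the level, at 0.134%, 0.122% and 0.147%. Ocm, the calcium-binding oncomodulin of outer HCs, was by far the highest at 538 ± 127 ppm, with 2365, 1673 and 2644 normalized reads. Next came Cib2, a part of the transduction complex, at 113 ± 5.08 ppm, and the scaffold protein gene Ush1c at 91.3 ± 2.45. The calcium buffer genes Calb2 and Pvalb, which neurons also use, were at 70.6 ± 4.77 and 60.3 ± 5.73 ppm. Myo6, an unconventional myosin, was at 54.6 ± 4.47, the transcription factor Pou4f3 at 41.2 ± 3.94 and Otof at 37.9 ± 2.90. All 39 were over 3 reads in every library. Of the 36 with a mean of at least 40, 16 were highest in replicate 1, 10 in replicate 2 and 10 in replicate 3. Over all 13972 genes with such a mean the counts were 4706, 3834 and 5432.

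Blood, vessels and immune cells were present in each library. The erythroid list held 0.927% ± 0.209 of the level, at 0.696%, 0.986% and 1.10% in replicates 1, 2 and 3, almost all of it globin. Hba-a2 was at 4595 ± 884 ppm and Hbb-bs at 3848 ± 989, and the haem synthesis gene Alas2 was at 33.6 ± 8.33. Each of these genes was lowest in replicate 1. The alpha globin genes Hba-a1 and Hba-a2 are near-identical copies, as are the beta globin genes, so the split of reads within each pair is uncertain. Hemgn, a nuclear protein of erythroid cells, was at or under 3 reads in all libraries. The endothelial list held 0.0715% ± 0.00964, with Eng at 196 ± 43.1 ppm and Cldn5 at 107 ± 13.2, and pericyte and smooth muscle genes held 0.0505% ± 0.00390, led by Rgs5 at 189.5 ± 8.01 ppm. The macrophage list held 0.0951% ± 0.00514, with all 22 genes over the floor. Its highest genes were those of complement component C1q, C1qa at 141 ± 10.1, C1qb at 131 ± 11.5 and C1qc at 97.6 ± 7.91 ppm, and Csf1r, the receptor for the growth factor that macrophages depend on, was at 76.5 ± 6.96. The granulocyte list held 0.00319% ± 0.00276 and was highest in replicate 3, where the calprotectin gene S100a9 had 94.9 normalized reads against 12.3 and 22.0 in replicates 1 and 2. Skeletal muscle genes held 0.00161% ± 0.000202.

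Bone and vestibular genes were measured as well. The osteoblast list held 0.475% ± 0.211 of the level, at 0.400%, 0.313% and 0.713%. Ibsp, the bone sialoprotein, had 12340, 6090.5 and 24660 normalized reads and Bglap, the osteocalcin gene, had 3382, 2288 and 6677. Both were highest in replicate 3 and lowest in replicate 2, as was the list, in which 13 of 14 genes had their highest value in replicate 3. Spp1, or osteopontin, which is also made outside bone, had 10161, 10606 and 9849.9 and did not share this order. The osteoclast list went another way, at 0.0388%, 0.0807% and 0.0454%. Ctsk, the collagen-degrading protease of osteoclasts, had 2177, 3562 and 2331, the phosphatase gene Acp5 had 1018, 2546 and 1018 and the gelatinase gene Mmp9 had 1080, 2986 and 1442. All were highest in replicate 2. Of the vestibular list, Oc90, the main soluble protein of the otoconia, was at rank 115 by reads with 10178, 14154 and 9908. Otol1, the otolin of the otoconial matrix, had 741, 784 and 751. The means of the 4 genes of this list summed to 12293 normalized reads, so the genes other than Oc90 and Otol1 added little. Of the 4, 3 were over 3 reads in every library.

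**Figure D4:**
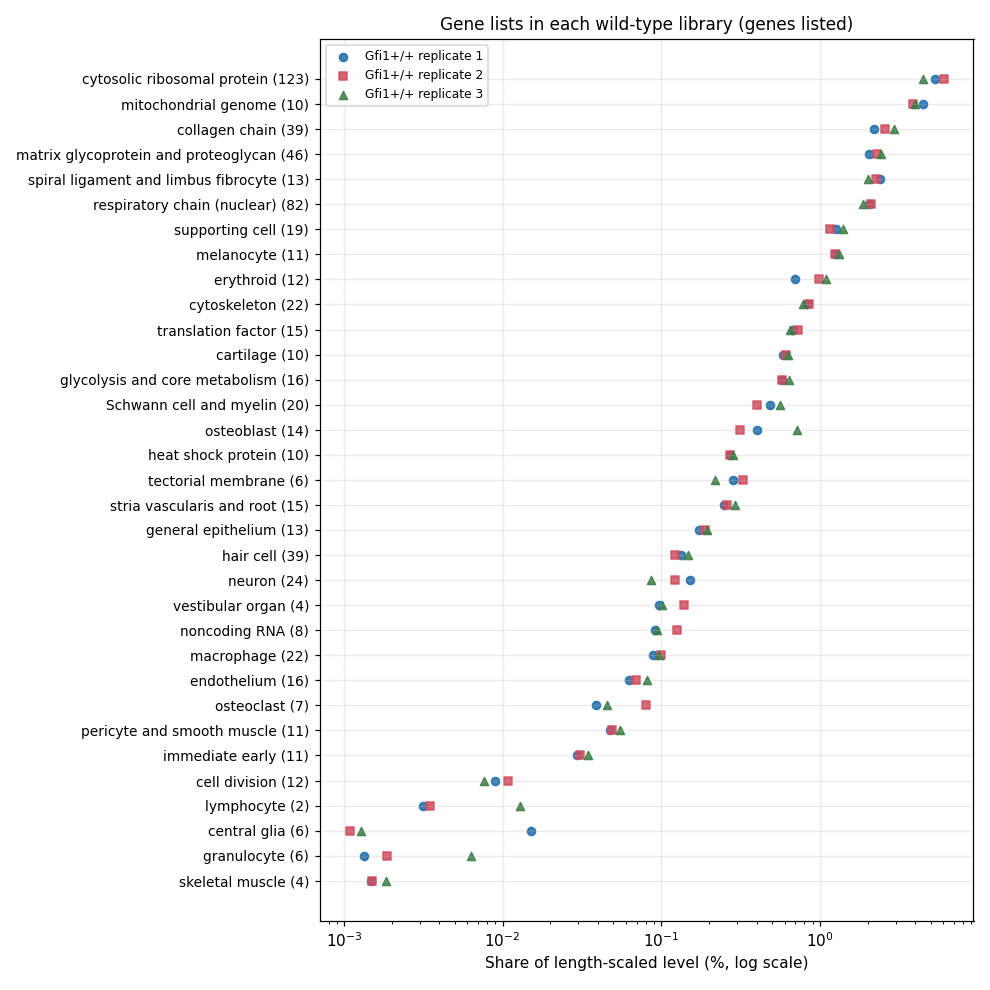
Share of the length-scaled level (%, log scale) of each of the 33 gene lists, with the number of listed genes in parentheses and 1 point for each of the 3 libraries. Most lists have their points within a narrow range, and the central glia list has replicate 1 far to the right, at 0.0151% against 0.00109% and 0.00129% in replicates 2 and 3.

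The machinery shared by all cells held a large part of the level. The cytosolic ribosomal protein list, which includes pseudogenes named after such genes, held 5.26% ± 0.788, at 5.29%, 6.04% and 4.47%, and 83 of its 116 genes with a mean of at least 40 were highest in replicate 2. The 10 listed genes of the mitochondrial genome held 4.10% ± 0.314, and all 10 were highest in replicate 1. Nuclear genes of the respiratory chain held 2.04%, 2.09% and 1.87%, led by Cox8a at 1614 ± 119 and Cox6a1 at 1198 ± 40.7 ppm. Translation factors held 0.686% ± 0.0416, cytoskeletal genes 0.821% ± 0.0315, with Actb at 1562 ± 96.7 ppm, and genes of glycolysis and core metabolism 0.597% ± 0.0357, with the ferritin gene Ftl1 at 746 ± 66.9. Heat shock protein genes held 0.276% ± 0.00728, led by Hsp90ab1 at 1442 ± 74.0 ppm. Cell division genes were low, at 0.00912% ± 0.00156. Pcna, the sliding clamp of replication, was at 33.5 ± 6.27 ppm. Immediate early genes, which rise within minutes of stimulation, held 0.0316% ± 0.00271.

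Of the annotated noncoding genes, the one with the most reads was Yam1 (Gm42418 in GENCODE), with 133218, 6730.2 and 50185 normalized reads. Its annotated span, chr17:39846958-39848788, overlaps Rn18s-rs5, a RefSeq pseudogene of ribosomal RNA. H19, an imprinted RNA of fetal and early postnatal tissue, had 9608, 14051 and 9017, Malat1 had 5448, 5397 and 5416 and Neat1, the scaffold of paraspeckles, had 2765, 2449 and 4212. Malat1, a nuclear RNA, varied by a CV of 0.476%. The mitochondrial ribosomal RNA genes mt-Rnr2 and mt-Rnr1 had 9040.3, 3207 and 5295 and 8798, 2072 and 3859.6. Rn7sk, a small nuclear RNA that holds back transcription elongation, had 18968, 152 and 6492. Beside these and Xist, the 10 noncoding genes with the most reads included Gm10076 with 3752, 3943 and 2867 and 2610203C20Rik with 2204, 2185 and 2483. Rn7sk and Yam1 had their lowest value in replicate 2, as did Neat1. Xist and Malat1 stayed within a narrow range, while Neat1 varied by a CV of 29.9% and H19 by 25.3%.

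The CV over the 3 animals was under 10% for most genes. Over the 13972 genes whose mean reached 40 normalized reads the median CV was 8.07%, and 62.0% of the genes had a CV under 10%. After the variance of counting was taken away, the median biological CV was 5.95%. Other estimates differed, with 1.58% without replicate 3 and 12.9% from the common dispersion of edgeR. These are not like measures. A median CV from 2 libraries tends to lie lower than one from 3, and the common dispersion is 1 pooled value and not a median over genes. Among the 10401 genes with a mean of at least 200 the median CV was 6.92%, with 53 genes above 50% and 14 above 100%. Counting error was a smaller part of the spread at higher abundance. For genes with a mean from 200 to 1000 the median CV was 7.31% against 4.75% from counting alone, and for the 140 genes above 10000 it was 8.50% against 0.834%. With 2 libraries at a time, the median CV was 5.13% for replicates 1 and 2, 6.85% for replicates 2 and 3, and 7.998% for replicates 1 and 3. The smallest CVs among genes with a mean of at least 1000 were those of Cog2, a Golgi tethering subunit, at 1089, 1089 and 1089.6 normalized reads, of Epdr1 at 1850.3, 1849 and 1846 and of Bsdc1 at 1265, 1268 and 1268. Among the 15 with the smallest CV were also Lfng, a modifier of Notch, at 1696, 1702 and 1705, and Aldoa, a glycolytic enzyme, at 10863, 10814 and 10872. All 15 varied by less than counting error alone gives, so their order among themselves carries no information.

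**Figure D5:**
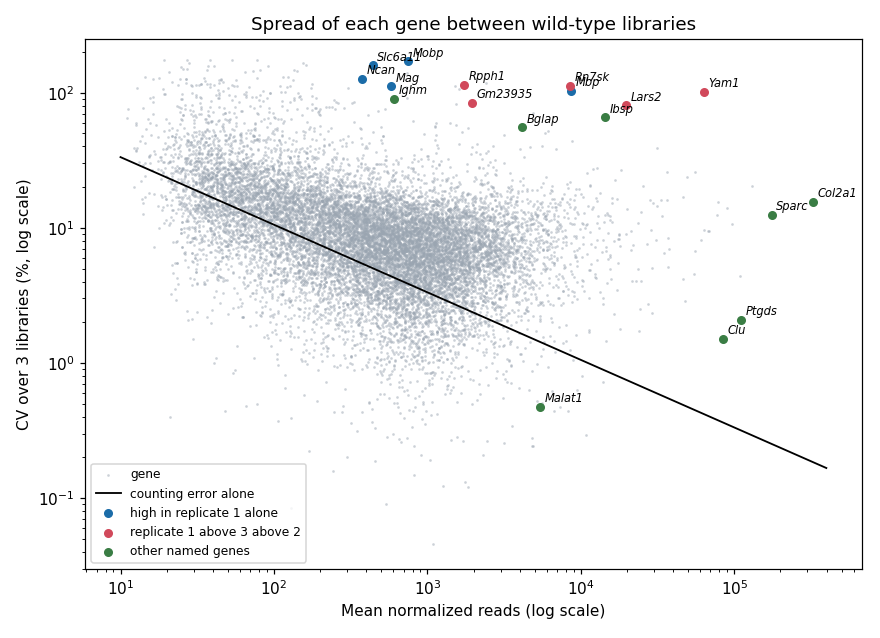
CV over the 3 libraries (%, log scale) of each gene with a mean of at least 10, against its mean normalized reads (log scale). The black line is the CV that counting alone gives. Col2a1 and Sparc lie at 15.5% and 12.5%, Ptgds and Clu at 2.09% and 1.51%, Rn7sk and Yam1 at 112% and 101%, and Mobp at 171%.

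Few genes departed from the rest in 1 library. With a mean of at least 200, more than 2-fold from the mean of the other libraries were 44 genes upward and 4 downward in replicate 1, 6 and 34 in replicate 2, and 12 and 32 in replicate 3, between 0.385% and 0.461% of the 10401 genes in each. Among the 100 genes with the largest biological CV, the highest value fell in replicate 1 for 62, in replicate 3 for 26 and in replicate 2 for 12. The genes that departed most are described below by the lists they belong to, and those in no list by what the gene is.

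Several glial and neural genes were far higher in replicate 1. Mobp, a myelin protein gene of oligodendrocytes, had 2235, 4.19 and 15.8 normalized reads in replicates 1, 2 and 3. Mog, a myelin surface protein of oligodendrocytes, had 232, 0 and 0, which is at least 73.9-fold and at least 73.3-fold higher in replicate 1 than the floor of 3 reads allows in replicates 2 and 3. Slc6a11, a GABA transporter of astrocytes, had 1254, 35.6 and 32.7, and Ncan, a proteoglycan of nervous tissue, had 925, 142 and 64.3. In all of these replicate 1 stood alone, and replicates 2 and 3 were both low. Myelin genes that oligodendrocytes and Schwann cells both use were also highest there. The myelin basic protein gene Mbp had 18871, 3524 and 3399.7 and Mag, a myelin adhesion molecule, had 1322, 230.3 and 180.4. The central glia list, with 6 of 8 genes listed, held 0.0151%, 0.00109% and 0.00129% of the level, and 5 of its 5 genes with a mean of at least 40 were highest in replicate 1. Of them the transcription factor gene Olig1 had 460.4, 10.5 and 14.8, Gfap, the filament of astrocytes, 307, 73.3 and 72.8, and the water channel gene Aqp4 595, 231 and 268. Olig2 had 105, 3.14 and 3.16, so that 2 defining markers of oligodendrocytes, Mog and Olig2, were at or under 3 reads in replicates 2 and 3. The Schwann cell and myelin list as a whole held 0.485%, 0.401% and 0.557% of the level, and its genes went different ways. Of the 20, the highest value fell in replicate 1 for 9, in replicate 2 for 3 and in replicate 3 for 8, and 1 gene was over 2-fold lower in replicate 1 than the mean of the other libraries. Ugt8a, an enzyme of myelin lipid synthesis, had 504, 140.3 and 116 and was highest in replicate 1. The calcium-binding S100b of Schwann cells and fibrocytes had 25741, 20012 and 30294, and the transcription factor gene Sox10, of Schwann cells and melanocytes, had 4716, 4316 and 5023. Both were highest in replicate 3.

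Neuronal genes were spread in the same direction but less widely. The neuron list held 0.152%, 0.123% and 0.0868%, and 20 of its 24 genes were highest in replicate 1, against 4706 of 13972 over all genes. Nefm and Nefl, subunits of the neurofilament of large axons, had 3449, 712 and 378 and 1631, 351 and 181. Stmn2, a regulator of axonal microtubules, had 652, 252 and 96.0 and Snap25, a protein of synaptic vesicle fusion, 464, 183 and 101. Cend1, Syp, Chga, Thy1 and Eef1a2, which are genes of neurons or of their secretory vesicles, were likewise highest in replicate 1 and lowest in replicate 3, for instance 507, 162 and 109.7 for the synaptic vesicle protein gene Syp. Scg2, a granin that was the highest of the list at 387 ± 74.9 ppm, was highest in replicate 2, with 5522, 6611 and 4388. Uchl1, a deubiquitinase of neurons, had 2496, 2143 and 1524, and Tubb3, the neuronal tubulin, had 1469, 809 and 558. In Nefm, Nefl, Stmn2, Snap25, Uchl1 and Tubb3 the order was replicate 1 above 2 above 3. The part of RNA from central nervous tissue in these values was not tested.

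Another set of genes had its highest value in replicate 1 and its lowest in replicate 2. Besides Yam1 and Rn7sk it included Rpph1, the RNA of ribonuclease P, with 3889, 24.1 and 1278, and Gm26917, annotated as a lincRNA, with 2894, 426 and 1262. Rn7sk and Rpph1 are made by RNA polymerase III and are known to carry no poly(A) tail. Lars2, a mitochondrial leucyl-tRNA synthetase gene, had 36130, 4308 and 18899. The short features Gm23935 and Gm24270 had 3510.5, 251 and 2089.6 and 1439, 101 and 676, and Gm15564 had 425, 49.2 and 243. Gm10800 had 1917, 10.5 and 273. The first 60 bases of Yam1, Rn7sk and Rpph1 and the whole of the short pair are given in lower case from the GENCODE transcripts (GRCm38), to show what was counted.
Yam1, chr17:39846958-39847017 (plus strand): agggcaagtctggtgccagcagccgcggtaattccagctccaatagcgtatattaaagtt
Rn7sk, chr9:78175574-78175633 (minus strand): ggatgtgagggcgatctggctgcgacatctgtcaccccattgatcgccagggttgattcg
Rpph1, chr14:50807708-50807767 (minus strand): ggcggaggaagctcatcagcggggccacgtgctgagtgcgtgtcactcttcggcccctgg
Gm23935, chr16:11144125-11144181 (plus strand): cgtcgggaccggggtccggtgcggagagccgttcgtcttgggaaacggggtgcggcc
Gm24270, chr9:56223715-56223771 (minus strand): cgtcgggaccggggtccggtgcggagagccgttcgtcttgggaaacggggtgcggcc

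Gm23935 and Gm24270, both annotated as miRNA genes, are identical over their 57 bases. These bases alone cannot tell their reads apart, and only reads with a unique position were counted. They lie within the RefSeq spans of the coding genes Zc3h7a and Peak1. Yam1 took 0.793%, 0.0404% and 0.295% of the reads of replicates 1, 2 and 3, and was the only gene above 0.5% in a library whose share differed by over 2-fold between libraries. Among the mitochondrial genes the ribosomal RNA genes mt-Rnr1 and mt-Rnr2 had the same order, with replicate 1 above 3 above 2.

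In replicate 3 most osteoblast genes were highest, whereas the osteoclast genes and Spp1 were not. Over all 10401 genes with a mean of at least 200, 12 were over 2-fold upward there. Of these 12, 7 were in no list, 4 were in the osteoblast list of 14 genes and 1 was in the lymphocyte list. Ighm, the heavy chain of immunoglobulin M, had 294, 291 and 1240.5 and was also far above the other libraries in replicate 3. The lymphocyte list, with 2 of 12 genes listed, held 0.00314%, 0.00347% and 0.0128% of the level. The granulocyte list, with 1 gene at a mean of at least 40, held 0.00134%, 0.00186% and 0.00636%. Both were highest in replicate 3, as the osteoblast list was. Lists of other kinds, such as collagen chains, HCs and endothelium, were also highest there, while the neuron and osteoclast lists were not. The part of RNA from blood-forming cells in these values was not tested. Ahnak2, a large scaffold protein gene, had 109.9, 115 and 376. Acp1, a low molecular weight phosphatase gene, had 362, 569 and 34.8, and was low in replicate 3 only.

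Beside these genes there was a slight shift with base composition and length. The genes in the lowest of 5 equal classes of GC content had a median log2 deviation from their mean over the libraries of 0.06 in replicate 1 and -0.06 in replicate 3, and those in the highest had -0.05 and 0.06. In replicate 2 the medians were 0.00 and -0.01. For the shortest of 5 equal classes of exon length the median deviation was -0.07 in replicate 3. The cytosolic ribosomal protein list, made of short genes, had medians of 0.06, 0.16 and -0.24 in replicates 1, 2 and 3, and the nuclear respiratory chain list had 0.08, 0.05 and -0.15. The part of base composition and length in the list values was not tested.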

How the data were processed

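RNA of cochlear ducts of postnatal day 8 Gfi1+/+ mice was sequenced after poly(A) selection. Per the methods, the authors aligned with TopHat against mm10, counted only reads with a unique position by HTSeq, and listed genes with at least 40 reads. The annotation, the strand setting and the tool versions are not given in the sources used here. The deposited values are a normalized signal per gene. The methods name quantile normalization, whereas each column held whole reads divided by 1 factor, and the columns did not share their quantiles. The reads were recovered by multiplication (13603908 to 16136022 per library), and intervals and floors cover counting error only, since PCR reads are not independent molecules.

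The 3 Gfi1+/+ columns were used and the 3 columns of the other genotype were not. Genes were joined by identifier to GENCODE M21 (GRCm38), and exon length is the union of exons. The CV is the SD over the mean, and the biological CV is what remains after the counting variance was subtracted, with negative values set to 0. Log2 deviations used a pseudocount of 1. Processed pseudogenes were aligned to coding transcripts with blastn 2.17.0. The steps were run in Python 3.11.15 (numpy 2.4.6, pandas 2.3.3, matplotlib 3.10.9) and R 4.3.3 (edgeR 4.0.16 and limma 3.58.1 for alternatives) and tested on simulated data. No test between groups was made.

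The members and lists were chosen with earlier results of these data known. Genes were named where they were among the 30 highest by reads or by level, the 5 highest of a list (12 for HC, macrophage, erythroid and neuron genes) or at most 3 reads in every library, the 30 with the largest biological CV (mean of at least 200), the 15 with the smallest CV (mean of at least 1000), the 10 noncoding genes with the most reads, over 0.5% of a library, or the 10 farthest from the rest in a library. Others (Myo7a, Sox2, Kcnq1, Ddx3y, Uty, S100a9 beside its list, most pseudogene parents and the TATAA genes) were chosen after their values were seen.
Some genes that meet this rule are not reported here.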

Additional observations from a re-analysis of the deposited data

How the results depend on the processing

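The abundance shares, the number of genes that hold 50% of the reads, the CVs and the 2-fold counts were recomputed as 63 values. Of these, 54 stayed within a spread (counts: within 1.5 times) and 9 moved. For the shares the spread was the SD over the 3 libraries. For the CVs it was the SD of the medians with 1 library left out, which were thus judged against themselves. The 54 include 3 shares of reads and 3 length-scaled shares for each library left out, which were all but bound to stay. With the longest transcript in place of the exon union, the length-scaled share was 27.9% for the 100 highest genes, against 30.2%, and 59.2% for the 1000 highest, against 61.7%. With pseudogene reads added to their parents, a choice made after seeing the data, the 1000 genes with the most reads held 48.6%, against 47.8%. Leaving out 1 library, the median CV ranged from 5.13% to 7.998%, against 8.07%, and the median biological CV from 1.58% (without replicate 3) to 5.74%, against 5.95%. The latter was chosen after seeing the data. Medians from fewer libraries tend to lie lower, so these values are not on the scale of those from all 3. The common dispersion of edgeR, a pooled value and not a median over genes, gave a biological CV of 12.9%. With genes from a mean of 40 upward, 221, 128 and 193 genes lay over 2-fold from the other libraries in replicates 1, 2 and 3, against 48, 40 and 44. Of 461 further values for the lists, 429 stayed within their spread, 32 moved and 0 changed sign with a size over 0.1. The 429 include 33 list shares for each library left out, which could not have moved. Leaving out 1 of 3 values always shifts their mean by less than their SD. For the list deviations the spread was the SD over the genes of a list and not over libraries. No paired analysis was possible because 1 group was described and no test was made. With 3 animals, the order of most neighbouring genes was not resolved, and values at or under 3 reads are below what can be told from absence.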
